A study of Mus musculus with 2 samples.

Results

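The genes described here are Casp6, Casp9, Apaf1, Xiap, Cycs and Diablo, the transcripts of the apoptosome, of an executioner caspase and of an inhibitor with its antagonist. They were chosen by name, and all 6 were found among the 52636 Ensembl genes of the 2 count tables through the GRCm38 annotation GENCODE M21. Every one of them reached 1 CPM, a read count scaled to the size of its library, the minimum for a gene to enter the comparison. Wild-type (WT) mice and mice with the genotype GBP5-/- (KO) were compared, C57BL/6 animals aged 9 weeks in both groups. Both had received 800 µg of D-galactosamine (GalN) and 100 ng of lipopolysaccharide (LPS) for each g of body weight, and livers were taken after 6 h. RNA of 4 livers was pooled into 1 library for each genotype, so there is no replicate and no test between genotypes. Intervals below are exact 95% intervals for counting error only, and they compare these libraries, not the genotypes. Whether intervals of WT and KO overlap depends also on the number of reads. The share of all genes without overlap was not computed, so a lack of overlap says nothing particular about the genes described. How the Gbp5 allele was made is not given in the sources used here, and no untreated liver was analysed here.

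In the mitochondrial route of apoptosis, cytochrome c leaves the intermembrane space and binds the adaptor APAF1, which assembles into the wheel-shaped apoptosome and recruits the initiator caspase-9. Caspase-9 then activates executioner caspases, which cut the proteins that take a cell apart. XIAP binds some caspases and blocks them, and SMAC, the product of Diablo, is released with cytochrome c and displaces XIAP. Hepatocytes are cells in which death receptor signals depend on amplification through mitochondria, and GalN with LPS is a common model of tumour necrosis factor-driven hepatocyte apoptosis. Transcript levels do not measure cleavage or release of any of these proteins.

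The libraries held 19864848 reads on Ensembl genes in WT and 15750875 in KO, and a count of 0 in them allows up to 0.151 and 0.190 CPM (3 reads). Gbp5, with 3211 WT and 873 KO reads, was 2.92-fold lower in KO (2.71 to 3.15), so the labels and the targeted gene point the same way. This is a weak check of the labels. Gbp5 still stood at 55.4 CPM in KO, and the untargeted macrophage marker Marco was 3.41-fold lower (3.22 to 3.62). Defining markers of liver were present in both, and the 10 hepatocyte markers summed to 64500 CPM in WT and 103474 in KO, with 9 of 10 higher. Alb alone held 38384 CPM of this in WT and 69250 in KO, and the median log2 ratio of the list was 0.45. Markers of Kupffer cells and macrophages summed to 1366 and 585 CPM, with 10 of 10 lower in KO, and those of T and NK cells to 65.8 and 29.4, with 8 of 8 lower. Endothelial markers summed to 793 and 588 CPM with 6 of 8 lower, and neutrophil markers to 384 and 302 with 4 of the 6 at 1 CPM or more lower. After the correction for GC content and length described below, the endothelial median log2 ratio went from -0.15 to -0.01. Of these 8 markers 0 were then at least 1.5-fold lower, against 2 before it. The neutrophil median went from -0.15 to -0.31. Cholangiocyte markers summed to 157 and 223 CPM, with 7 of 8 higher. Krt19 alone went from 11.5 to 48.7 CPM, and Sox9 was lower, at a ratio of 0.709. The 8 pancreatic acinar markers summed to 26.6 and 40.3 CPM. Cela1 held most of these reads and was lower in KO, with 521 and 328 reads. Among the others Pnlip, Cpa1 and Amy2b were at 0 in both libraries and Ctrb1 went from 0 to 297 reads. After the same correction the median log2 ratio was -0.77 for Kupffer cells and macrophages (-0.94 before it) and -1.09 for T and NK cells. It was 0.46 for hepatocytes and 0.61 for cholangiocytes (0.45 before it for both). The share of all genes lower or higher by any amount was not computed, and their median before the correction was -0.07. The part of this cell makeup in the values below was not tested. In these bulk livers fewer cells of a type and less RNA per cell cannot be told apart.

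The 6 genes did not move as a block. Casp6 was 1.63-fold higher in KO and Apaf1 1.66-fold lower, while Cycs and Xiap were modestly higher and the intervals of Casp9 and Diablo include equality. After the correction for GC content and length described below, the interval of Xiap includes equality and that of Diablo lies below it. These corrected intervals carry no error of the correction itself. By a rule of size, 1 of 6 was at least 1.5-fold higher, beside 12.5% of the 14062 genes compared, and 1 of 6 was at least 1.5-fold lower, beside 24.9%. None of the 6 reached 2-fold, which 4.63% of all genes did upward and 12.4% downward. Counts of 1 in 6 are near these backgrounds and say nothing particular about the group. The median log2 ratio of the 6 was 0.08, with a range from -0.73 to 0.71, beside a median of -0.07 and an interquartile range from -0.58 to 0.31 over all genes.

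**Figure D1:**
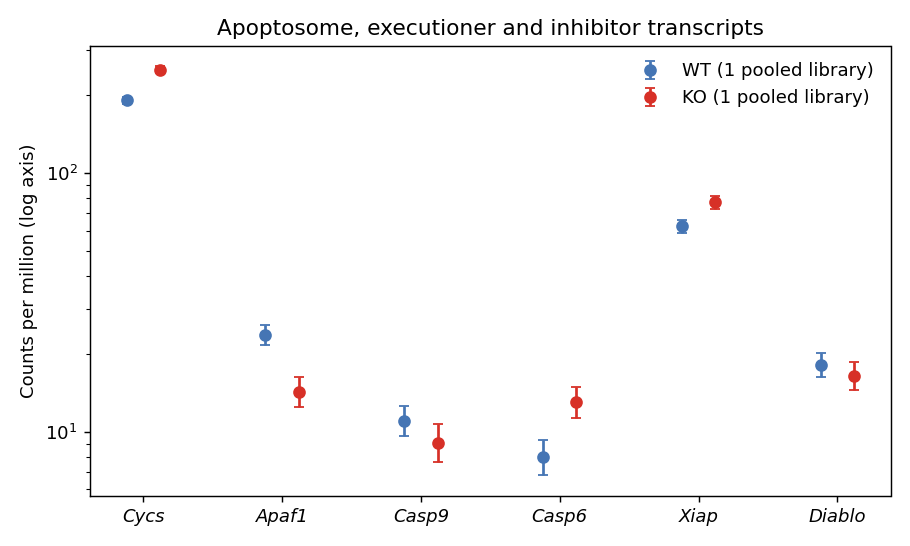
CPM of the 6 genes in the WT and KO libraries on a log axis, with exact 95% counting intervals as bars and 1 pooled library per group. Cycs stands highest at 191 and 251 CPM, and the intervals of WT and KO are apart for Cycs, Apaf1, Casp6 and Xiap and overlap for Casp9 and Diablo. Such separation depends also on read depth, and the share of all genes with it was not computed.

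Apaf1, the scaffold of the apoptosome (ENSMUSG00000019979, GRCm38 chr10:90989311-91082770, minus strand), was covered by 471 WT reads and 225 KO reads. That is 23.7 CPM (21.6 to 26.0) and 14.3 CPM (12.5 to 16.3), and these intervals do not overlap. The WT level was 1.66-fold the KO level (1.41 to 1.95), a log2 ratio of -0.73 that placed the gene at percentile 19.6 of all genes compared. So many of the genes compared were lower still. After the correction for GC content and length described below, Apaf1 stood at percentile 11.0. Its promoter window, from 250 bases before the start site to 50 after it, is shown because Apaf1 is the lowest of the 6. It is from RefSeq on GRCm38.p6, chr10:91082694-91082993, minus strand, read 5′ to 3′, with capitals for the GC box letters GGGCGG on either strand.
Apaf1 promoter: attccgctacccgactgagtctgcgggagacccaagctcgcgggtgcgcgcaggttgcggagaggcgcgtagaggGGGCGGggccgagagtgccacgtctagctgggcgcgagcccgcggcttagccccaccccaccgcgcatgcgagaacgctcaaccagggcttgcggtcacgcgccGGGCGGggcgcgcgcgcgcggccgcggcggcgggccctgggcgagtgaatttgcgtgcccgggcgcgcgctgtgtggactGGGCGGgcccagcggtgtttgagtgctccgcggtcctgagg
This window was 74.7% G or C, higher than in 95.8% of 32851 promoter windows, and held 46 CG pairs.

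Casp9, the initiator caspase that the apoptosome recruits (ENSMUSG00000028914, chr4:141793612-141815976, plus strand), was covered by 220 WT reads and 143 KO reads. The levels were 11.1 CPM (9.66 to 12.6) and 9.08 CPM (7.65 to 10.7), with overlapping intervals. The ratio of KO to WT was 0.820 (0.659 to 1.02), so a difference was not detectable at this depth. Casp9 shares 94 exon bases with each of Cela2a and Ctrc on the opposite strand, both genes of pancreatic proteases. Cela2a had 6 and 9 reads and Ctrc none in either library.

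Cycs encodes somatic cytochrome c, the electron carrier that triggers the apoptosome once it is in the cytosol (ENSMUSG00000063694, chr6:50562563-50566538, minus strand). It gave 3803 reads in WT and 3951 in KO and had the highest level of the 6, also per length. Its levels of 191 CPM (185 to 198) and 251 CPM (243 to 259) do not overlap, and KO was 1.31-fold higher (1.25 to 1.37). This gene has processed copies, which were found by matching its longest coding transcript to all annotated transcripts. The 318 coding bases of Cycs were then aligned to each copy found. Gm10053, annotated as protein-coding at chr19:24875686-24876631 on the plus strand, matched with 0 mismatches and had 503 and 411 reads. A further 9 processed pseudogenes matched at 90% identity or more and held 50 and 34 reads together, of which Gm10108 had 41 and 23. The first 60 coding bases, 5′ to 3′, show why short reads cannot always be assigned among them, with capitals where a copy differs from Cycs.
Cycs: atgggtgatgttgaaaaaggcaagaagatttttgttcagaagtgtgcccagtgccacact
Gm10053: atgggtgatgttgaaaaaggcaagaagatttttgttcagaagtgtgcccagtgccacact
Gm10108: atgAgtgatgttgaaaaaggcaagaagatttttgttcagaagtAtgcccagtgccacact
Gm10053 is identical to Cycs here and Gm10108 differs at 2 bases. How reads that match several places were counted is not given in the sources used here, so the split among these genes is uncertain. Gm10053 alone had a ratio of 1.03 (0.902 to 1.18). Summed over Cycs and its 10 copies, the libraries held 219 and 279 CPM, and KO was 1.27-fold higher (1.22 to 1.33).

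The promoter window of Cycs is shown because it holds a cAMP response element, the letters TGACGTCA, a site type through which the cytochrome c gene is classically controlled in rat. It is from RefSeq on GRCm38.p6, chr6:50566520-50566819, minus strand, with capitals for that element, the GC box and the CCAAT box letters CCAAT.
Cycs promoter: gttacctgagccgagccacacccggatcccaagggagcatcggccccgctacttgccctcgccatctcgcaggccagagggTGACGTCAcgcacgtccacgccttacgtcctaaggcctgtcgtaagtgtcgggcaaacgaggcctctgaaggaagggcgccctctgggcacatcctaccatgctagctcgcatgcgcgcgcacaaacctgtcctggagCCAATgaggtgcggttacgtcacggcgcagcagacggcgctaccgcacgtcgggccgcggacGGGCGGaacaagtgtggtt
The cAMP response element was found once in this window, in none of the windows of the other 5 genes, and in 1.79% of all windows. A match is a run of letters and not evidence of binding.

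Casp6 encodes caspase-6, an executioner caspase known for cleaving nuclear lamins (ENSMUSG00000027997, chr3:129901425-129914103, plus strand). The WT library gave 159 reads of it and the smaller KO library 206. The levels were 8.0 CPM (6.81 to 9.35) and 13.1 CPM (11.4 to 15), and these intervals do not overlap. KO was 1.63-fold higher (1.32 to 2.02), a log2 ratio of 0.71 at percentile 90.9 of all genes compared. Its promoter window is shown as that of the highest of the 6, from RefSeq on GRCm38.p6, chr3:129901165-129901464, plus strand, with capitals for the GC box.
Casp6 promoter: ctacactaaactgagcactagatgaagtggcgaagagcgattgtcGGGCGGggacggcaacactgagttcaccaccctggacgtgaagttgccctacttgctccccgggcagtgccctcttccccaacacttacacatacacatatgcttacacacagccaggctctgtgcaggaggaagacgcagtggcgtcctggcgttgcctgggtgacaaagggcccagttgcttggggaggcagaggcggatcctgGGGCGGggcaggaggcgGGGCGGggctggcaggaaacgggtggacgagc
It was 62.0% G or C with 16 CG pairs and held 3 GC boxes, as the Apaf1 window did, so the GC box count does not separate these genes that differed in opposite directions. With the first listed of 3 windows for Xiap, the windows of all 6 genes held at least 1 GC box, as did 35.7% of all windows, and none held the TATA letters TATAAA, which 13.6% of all windows did. The third Xiap window differs in both respects, with 0 GC boxes and 1 match to TATAAA. All motifs were searched on both strands.

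Xiap encodes the X-linked inhibitor of apoptosis, which binds caspase-9 and some, not all, executioner caspases (ENSMUSG00000025860, chrX:42059679-42109656, plus strand). The WT library gave 1237 reads of it and the KO library 1216. Scaled to depth these are 62.3 CPM (58.8 to 65.8) and 77.2 CPM (72.9 to 81.7), which do not overlap, with KO 1.24-fold higher (1.14 to 1.34). A processed copy, Gm17791, matched it at 91.8% identity and had no reads. Diablo encodes SMAC, the XIAP antagonist of the intermembrane space (ENSMUSG00000029433, chr5:123509765-123524176, minus strand). The WT library gave 361 reads of it and the KO library 259, or 18.2 CPM (16.3 to 20.1) and 16.4 CPM (14.5 to 18.6), which overlap. Its ratio of KO to WT was 0.905 (0.768 to 1.06), so a difference was not detectable at this depth. After the correction for GC content and length given below, its interval leaves out equality. That interval is the counting interval shifted and carries no error of the correction, and Diablo then stood at percentile 27.5 of all genes compared. Diablo shares 1193 exon bases with Gm49027 on the same strand, 1326 with B3gnt4 and 122 with AC157931.1 on the opposite strand. Gm49027 and B3gnt4 had no reads and AC157931.1 had 23 and 15, and since the strand setting of the counting is not given, reads in the shared bases are uncertain.

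**Figure D2:**
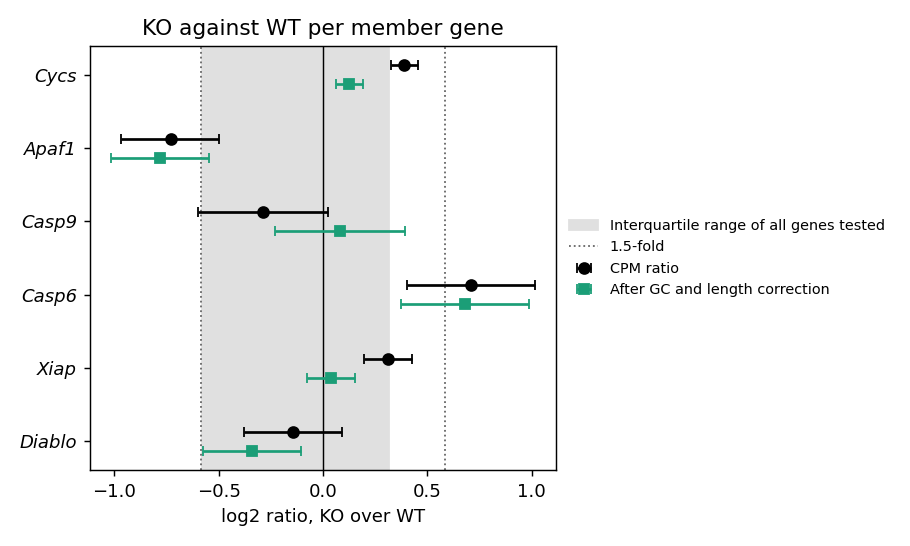
Log2 ratio of KO to WT for each gene with exact 95% counting intervals, as measured (circles) and after the correction for GC content and length (squares). The grey band is the interquartile range of all genes compared, from -0.58 to 0.31, and dotted lines mark 1.5-fold; Casp6 at 0.71 and Apaf1 at -0.73 lie outside it either way.

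The ratio between these libraries went with the GC content of the transcript, and the 6 genes differ in it. GC content of the longest coding transcript ran from 36.8% for Xiap and 40.8% for Cycs to 53.4% for Casp9. The median log2 ratio of genes of like GC content and exon length was 0.27 around Xiap and 0.26 around Cycs, against -0.37 around Casp9. After this median was taken off, Xiap stood at 0.04 (-0.08 to 0.15) and Cycs at 0.13 (0.06 to 0.19), so most of their excess was shared by genes of like composition. Casp9 moved from -0.29 to 0.08 (-0.23 to 0.39) and Diablo from -0.14 to -0.34 (-0.58 to -0.11). Casp6 and Apaf1 have nearly the same GC content, 46.2% and 46.0%, and genes around them had medians of 0.03 and 0.05. Casp6 thus stayed at 0.68 (0.38 to 0.99) and Apaf1 at -0.78 (-1.02 to -0.55). After the correction 1 of 6 was still at least 1.5-fold higher and 1 of 6 at least 1.5-fold lower, beside 13.5% and 16.8% of all genes, and none of the 6 was 2-fold apart, beside 5.14% upward and 6.79% downward.

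**Figure D3:**
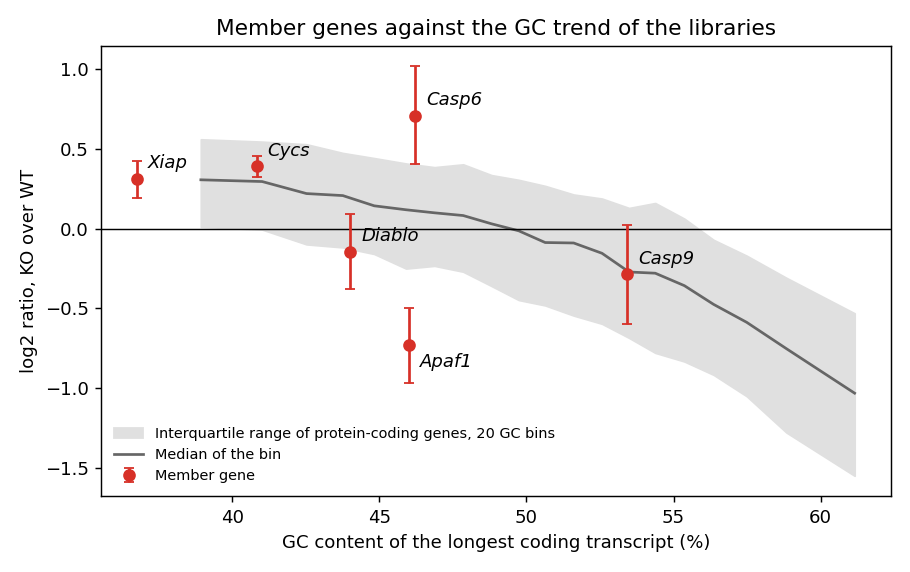
Log2 ratio of KO to WT against GC content of the longest coding transcript; the line and band give the median and interquartile range of protein-coding genes in 20 GC bins, and red points the 6 genes with 95% counting intervals. Casp6 (0.71) and Apaf1 (-0.73) lie above and below the band at nearly equal GC content, and Xiap and Casp9 lie close to the line.

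Levels were compared between genes per kilobase of exon (FPKM, computed here from the counts). Cycs had 56.2 FPKM in WT and 73.7 in KO, far above Xiap at 6.58 and 8.15. Diablo followed at 2.95 and 2.67. In WT the order went on with Apaf1 at 2.63, Casp9 at 2.13 and Casp6 at 1.43, and in KO with Casp6 at 2.34, Casp9 at 1.75 and Apaf1 at 1.58. Apaf1 and Casp6 thus traded the fourth and the sixth place. Counting intervals of neighbours overlapped in WT for Diablo with Apaf1 and Apaf1 with Casp9, and in KO for each neighbouring pair below Xiap. The order below Xiap also depends on the length used. Per length of the longest coding transcript, which is 1456 bases for Casp6 beside 5584 bases of all annotated exons, Casp6 reached 5.50 FPKM in WT and 8.98 in KO and stood above Apaf1 at 3.61 and 2.17 in both. Cycs and Xiap kept the first and the second place with either length.

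Ratios between a pair of these genes inside 1 library do not depend on the library total, and all 15 pairs were compared as reads of 1 gene per read of the other. Of these, 13 had an interval that leaves out equality, which covers counting error only. The pairs reuse the same genes and are not independent. The share among pairs of all genes was not computed, so the count says nothing particular about these genes. It is also taken before the correction for GC content and length, which brought Casp9 per Cycs from 0.626 to 0.970. Apaf1 was lower relative to both Cycs and Xiap. There were 8.07 reads of Cycs per read of Apaf1 in WT and 17.6 in KO, a change of 2.17-fold (1.84 to 2.58). Xiap reads per Apaf1 read went from 2.63 to 5.40, 2.06-fold (1.72 to 2.47). The widest shift was that of Casp6 per Apaf1, from 0.338 to 0.916, or 2.71-fold (2.07 to 3.55), and it was 2.75-fold after the correction for GC content and length. Casp6 per Casp9 went from 0.723 to 1.44, a change of 1.99-fold (1.47 to 2.71), which the correction brought to 1.51-fold.

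The balance of the inhibitor with its antagonist and with caspase-9 shifted less. Xiap reads per Diablo read were 3.43 in WT and 4.69 in KO, 1.37-fold higher (1.14 to 1.64) and 1.30-fold after the correction. Xiap reads per Casp9 read went from 5.62 to 8.5, 1.51-fold (1.20 to 1.91), but the correction left a ratio of 0.969. Xiap per Cycs was 0.325 and 0.308, a change of 0.946 (0.863 to 1.04). Casp9 per Diablo also included equality, at 0.906 (0.689 to 1.19).

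**Figure D4:**
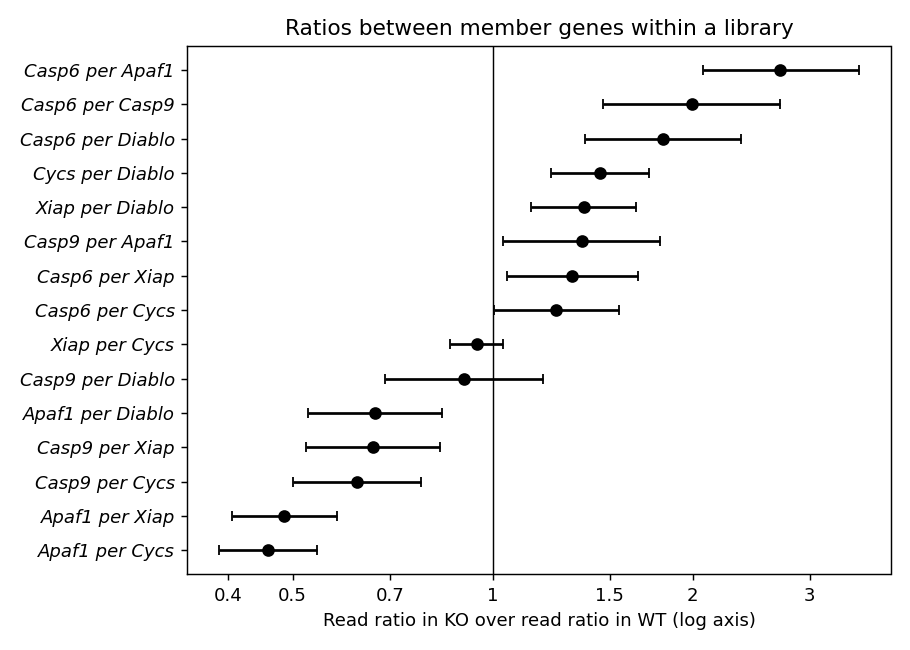
For each of 15 pairs, the reads of the first gene per read of the second in KO over the same ratio in WT, on a log axis with exact 95% intervals for counting error. Pairs with Casp6 first lie above 1, up to 2.71 for Casp6 per Apaf1, pairs with Apaf1 first lie below 1, and Xiap per Cycs at 0.946 and Casp9 per Diablo at 0.906 include 1.

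The surrounding pathway was read from 6 lists that hold 45 genes besides those above, of which 41 reached 1 CPM. At least 1.5-fold lower were 13 of 41 and at least 1.5-fold higher was 1 of 41, beside 24.9% and 12.5% of all genes, and their median log2 ratio was -0.35 beside -0.07. After the correction the counts were 12 and 3, beside 16.8% and 13.5% of all genes, and the median was -0.18. Of the apoptosome core and its modulators 9 genes were measured, Apaf1, Casp9 and Cycs included. At least 1.5-fold lower were 4 of 9 and higher 1 of 9, beside 24.9% and 12.5% of all genes. The counts were the same after the correction, beside 16.8% and 13.5%. Aven, which binds APAF1 and hinders its assembly, was lowest, with 250 and 113 reads and 1.75-fold lower (1.40 to 2.21). Hccs, the enzyme that attaches heme to cytochrome c, had 269 and 129 reads and was 1.65-fold lower (1.34 to 2.06), in contrast to Cycs itself. Anp32a, known to promote caspase activation by the apoptosome in cell extracts, was 1.69-fold lower (1.55 to 1.84). Apip, an APAF1-interacting protein that also serves methionine salvage, was the 1 gene past 1.5-fold upward, with 147 and 211 reads and 1.81-fold higher (1.46 to 2.25).

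Of 7 genes of the inhibitor of apoptosis family and XIAP modulators at 1 CPM or more, Xiap included, none was 1.5-fold apart either way, beside 24.9% of all genes lower and 12.5% higher. After the correction 1 was lower, Xaf1, at a log2 ratio of -0.63, and 1 higher, Tab1. Birc2 and Birc3, which encode ubiquitin ligases of the tumour necrosis factor receptor complex, had ratios of 1.02 (0.947 to 1.10) and 0.948 (0.882 to 1.02). Xaf1, an interferon-induced antagonist of XIAP, was lowest at 1.44-fold lower (1.27 to 1.65), with 654 and 359 reads. Tab1, an adaptor that binds XIAP, was highest at a ratio of 1.29 (0.860 to 1.92) on 52 and 53 reads, and its log2 ratio of 0.36 became 1.38 after the correction. Of the other proteins of the intermembrane space, the nuclease gene Endog was 1.65-fold lower (1.48 to 1.83), at a log2 ratio of -0.72 and of -0.24 after the correction. Htra2, a protease that also binds XIAP, was 1.48-fold lower (1.27 to 1.72), or at -0.16 after the correction. Aifm1, which encodes apoptosis-inducing factor, had a ratio of 1.09 (1.01 to 1.17).

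The gate through which cytochrome c passes had 3 of 8 genes at least 1.5-fold lower, beside 24.9% of all genes. After the correction 2 of 8 were, beside 16.8%, and the median log2 ratio of the list went from -0.43 to -0.10. The pore-forming genes Bax and Bak1 were 1.83-fold (1.66 to 2.02) and 2.33-fold lower (1.78 to 3.06), at log2 ratios of -0.87 and -1.22, or -0.39 and -0.82 after the correction. Mcl1, which restrains them, was the lowest of this list at -1.48, and the channel gene Vdac1 the highest at 1.40-fold higher (1.33 to 1.48). Bax, Bak1 and Mcl1 were thus all lower in KO, whereas Vdac1 was not. Vdac2 was also higher, 1.29-fold (1.20 to 1.38), as was Bid, 1.30-fold (1.04 to 1.61). Bcl2l1 changed sign with the correction, from a log2 ratio of -0.47 to 0.19. Among initiator and inflammatory caspases none of 6 measured genes was 1.5-fold apart, beside 24.9% of all genes lower and 12.5% higher. After the correction 1 of 6 was lower, Casp1, at a log2 ratio of -0.61 (-0.35 before it). Cflar, the caspase-8 inhibitor, was lowest at 1.32-fold lower (1.25 to 1.39), and Casp12, an endoplasmic reticulum caspase in mice, highest at 1.42-fold higher (1.11 to 1.83). Their log2 ratios of -0.40 and 0.51 became -0.45 and 0.23 after the correction.

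Of 12 caspase substrates, 6 were at least 1.5-fold lower and none higher, beside 24.9% and 12.5% of all genes. After the correction 5 were lower and 1 higher, beside 16.8% and 13.5%. Acin1, a chromatin condensation factor, was lowest with 1381 and 409 reads, 2.68-fold lower (2.40 to 3.0), at a log2 ratio of -1.42 and of -0.83 after the correction. Panx1, the channel that caspases open to release ATP, had 132 and 50 reads and was 2.09-fold lower (1.5 to 2.96). Dffa, the inhibitor of the nuclease that cuts DNA into ladders, was 1.67-fold lower (1.35 to 2.07), whereas the nuclease gene Dffb had only 24 and 15 reads. Lmna, a lamin gene and the textbook type of caspase-6 substrate, had a ratio of 0.808 (0.712 to 0.915). Its log2 ratio of -0.31 became 0.89 after the correction, a change of sign. The other lamin gene of the list, Lmnb1, was 1.53-fold lower (1.27 to 1.86), at a log2 ratio of -0.62 and of -0.54 after the correction. Gas2, a cytoskeletal substrate, was highest at 1.32-fold higher (1.15 to 1.51).

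**Figure D5:**
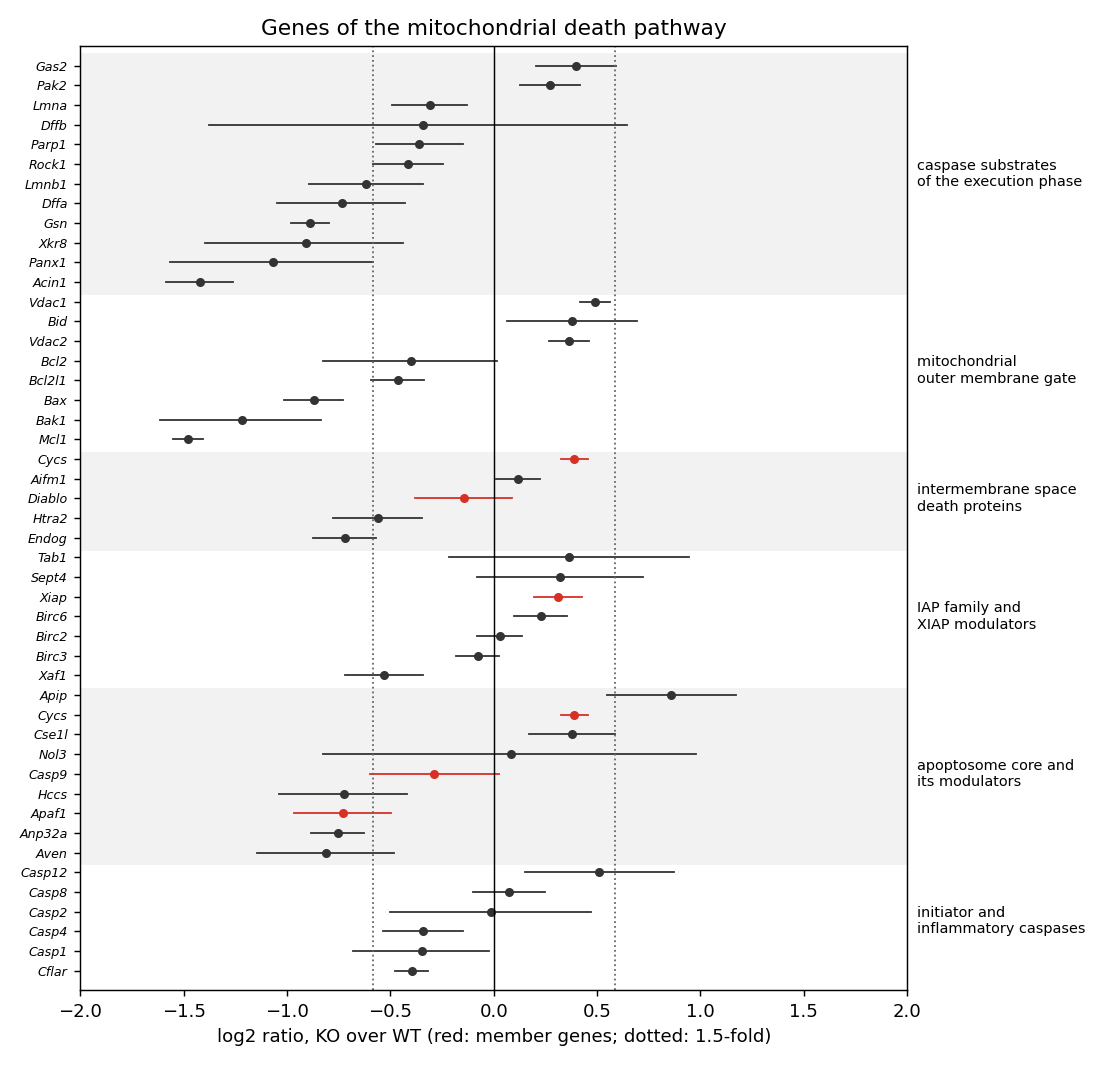
Log2 ratio of KO to WT with exact 95% counting intervals for the genes of 6 lists at 1 CPM or more, with the described genes in red and dotted lines at 1.5-fold. Apip at 0.86 is the highest and Mcl1 at -1.48 the lowest. The median of the 12 caspase substrates was -0.52, beside -0.07 over all genes. After the correction for GC content and length these medians were -0.51 and 0.002.

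With 2 libraries each gene has 1 ratio, and likeness to a gene here means the nearest log2 ratio in these lists. The nearest to Apaf1 was Dffa, at -0.74 beside -0.73, and the nearest to Casp6 was Apip, at 0.86 beside 0.71. Cycs lay nearest to Gas2, Xiap to Sept4, Casp9 to Lmna and Diablo to Birc3, with gaps from 0.01 to 0.07. These pairings rest on ratios before the correction for GC content and length. After it Casp9 stood at 0.08 beside Lmna at 0.89, and Xiap at 0.04 beside Sept4 at 0.40. Apaf1 stood at -0.78 beside Dffa at -0.66, and Casp6 at 0.68 beside Apip at 0.74.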

How the data were processed

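Liver RNA was measured in 2 libraries, WT and KO, grouped by genotype label, each a pool of 4 livers per the labels' design text. TopHat2 and HTSeq 0.6.1 on GRCm38 are named per the submitters' processing notes. The annotation release and strand setting of the counting are not given in those sources. The values the authors deposited are read counts per gene with no normalization, although the tables are named for FPKM. Entries without an Ensembl ID, 209 in each table, held 0.652% and 0.496% of reads and were left out.

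CPM used the reads on all Ensembl genes as total. FPKM was computed with the union of exons in GENCODE M21. Ratios of KO to WT carry Clopper-Pearson intervals conditional on the reads of both libraries, and read ratios between genes carry exact conditional odds ratio intervals. Reads are not independent molecules. Genes at 1 CPM or more in either library entered the counts. The correction took off the median log2 ratio in 10 GC bins by 4 length bins, built on genes with 100 reads or more, and also removes real differences that go with either. Steps were tested on simulated counts. Copies were found with blastn 2.17.0 (90% identity over 200 bases). TMM factors came from edgeR 4.0.16 (R 4.3.3). The rest used Python 3.11.15 with scipy 1.17.1, pandas 2.3.3 and numpy 2.4.6.

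The members and lists were chosen with earlier results of these data known. Besides the 6 genes and Gbp5, the rule for named genes took the highest and lowest of each list at 20 reads or more and the nearest ratio to each of the 6. Anp32a, Hccs, Birc2, Htra2, Aifm1, Casp1, Cela1, Bax, Bak1, Panx1, Dffb, B3gnt4, Cela2a, Ctrc, AC157931.1 and the Gm genes were named after their values were seen. So were Alb, Krt19, Sox9, Marco, Ctrb1, Pnlip, Cpa1, Amy2b, Vdac2, Bid, Bcl2l1 and Lmnb1. A pair of genes in the lists as first written is not reported here.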

Additional observations from a re-analysis of the deposited data

How the results depend on the processing

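No paired analysis was possible because each genotype is a single pooled library, and no replicate can be left out. The log2 ratios of Casp6 (0.61 to 0.81), Apaf1 (-0.83 to -0.63) and Diablo (-0.35 to -0.04) stayed within their counting intervals under 7 alternatives: 4 scalings, the GC and length correction, a pseudocount of 1 CPM, and 20 GC bins without length, chosen after seeing the data. The GC and length correction moved Casp9 to 0.083, Xiap to 0.037 and Cycs to 0.13. The 20 GC bins moved Xiap to 0.016 and Cycs to 0.13. Totals without the 50 most abundant genes moved the ratios of all genes by 0.10 and Cycs to 0.49. Summing Cycs with its copies, also chosen after seeing the data, gave 0.35.

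Counts of the 6 genes past 1.5-fold and 2-fold were the same under all 9 alternatives. Pathway genes at least 1.5-fold higher went from 1 to 3 with the correction and to 3 without the 50 most abundant genes. Over all genes, 651 were at least 2-fold higher, against 295 with the pseudocount, 2086 with no filter and 194 at 5 CPM or more. At least 2-fold lower were 1748, against 955 with the correction and 2718 with no filter. Why these counts moved was not tested beyond what the filters do by construction, which is to change the genes entered.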
